A study of Mus musculus with 6 samples.

Results

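The 40 genes described here act in G2 and mitosis, the phases in which a cell that has copied its DNA checks it, condenses it and divides. They were chosen by symbol from a written list of cyclins, mitotic kinases, kinetochore, spindle and cytokinesis genes, and each symbol was matched to its Ensembl gene. All 40 had a row among the 43629 genes of the count table, and all 40 had counts in control tumours. The genes were measured in B16F10 tumours, a mouse melanoma line grown under the skin of 8-week-old female C57BL/6J mice. Treatment was given daily until control tumours reached 2000 mm3. Each library came from the pooled tumours of 1 treatment, and there were 6 libraries in all. They were AZD5363 and MK1775 with anti-PD-1, AZD5363 and MK1775 with control IgG, KS100 with anti-PD-1, KS100 with control IgG, DMSO with anti-PD-1, and DMSO with control IgG, which is called control. AZD5363 inhibits the kinase AKT, MK1775 inhibits the kinase WEE1, KS100 inhibits aldehyde dehydrogenases, and anti-PD-1 is an antibody to the T cell checkpoint receptor PD-1. The comparisons ask how each treatment moved the tumours' transcripts, in a design where 1 line in 1 host strain and 1 pool stand for each treatment.

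Entry into mitosis is driven by the kinase CDK1 bound to cyclin A or cyclin B. WEE1 and its relative PKMYT1 hold CDK1 inactive by phosphorylating it, and CDC25 phosphatases remove that phosphate. In mitosis, condensin and topoisomerase II shape the chromosomes, kinetochores tie them to spindle microtubules, and the spindle checkpoint holds back the anaphase-promoting complex until every chromosome is attached. That complex then marks cyclin B for destruction, and the central spindle guides the cut between the daughter cells. Most of these genes are transcribed late in the cell cycle, through promoter elements named the cell cycle genes homology region (CHR), read by the DREAM and MYB-MuvB complexes, and the CCAAT box, read by NF-Y.

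These shared promoter elements were looked for in RefSeq promoter windows of build GRCm38.p6, which held 33 of the 40 genes. Ccna2, Cdc25c, Aurkb, Incenp, Tpx2, Smc4 and Kif20a had no window. The CHR letters TTTGAA, on either strand, lay between 100 bases before and 50 bases after the start in 23 of the 33 genes (69.7%), against 9.23% of 27025 genes with a window. CCAAT, on either strand, lay between 250 bases before and 50 after in 25 of the 33 (75.8%), against 41.1% of all. The variant TTCGAA lay near the start of 2 of the 33, Cdc25b and Bub1. A CHR and a CCAAT box can share a letter, as they do just after the start of Cdca8. A CHR or its variant near the start together with CCAAT in the window was found in 22 of the 33 (66.7%), against 3.93% of all genes. The 6 windows here, from 120 bases before to 30 after the start, are of genes that hold a CHR there. Birc5, Mad2l1, Plk1 and Cenpe, which are called in comparisons below, hold no CHR between these bases and are not shown. Plk1 is still among the 23 genes above, since its CHR reaches past 30 bases after the start. Capitals mark the letters of a CHR, of its variant or of a CCAAT box on either strand.
Cdk1, chr10:69352883-69353032, minus strand: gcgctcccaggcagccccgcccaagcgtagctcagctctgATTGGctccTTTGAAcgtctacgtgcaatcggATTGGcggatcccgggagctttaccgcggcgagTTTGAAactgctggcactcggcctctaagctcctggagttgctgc
Ccnb2, chr9:70421525-70421674, minus strand: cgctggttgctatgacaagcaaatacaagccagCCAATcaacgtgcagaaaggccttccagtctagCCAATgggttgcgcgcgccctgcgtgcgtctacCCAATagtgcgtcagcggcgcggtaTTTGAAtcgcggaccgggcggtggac
Ttk, chr9:83834569-83834718, plus strand: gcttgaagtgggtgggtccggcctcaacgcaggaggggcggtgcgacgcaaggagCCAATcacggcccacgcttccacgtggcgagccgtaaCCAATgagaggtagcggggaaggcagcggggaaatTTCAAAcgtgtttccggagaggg
Cenpf, chr1:189688057-189688206, minus strand: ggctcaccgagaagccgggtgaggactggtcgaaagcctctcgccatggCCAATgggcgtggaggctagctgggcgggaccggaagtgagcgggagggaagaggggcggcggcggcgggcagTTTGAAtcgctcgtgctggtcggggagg
Kif15, chr9:122950961-122951110, plus strand: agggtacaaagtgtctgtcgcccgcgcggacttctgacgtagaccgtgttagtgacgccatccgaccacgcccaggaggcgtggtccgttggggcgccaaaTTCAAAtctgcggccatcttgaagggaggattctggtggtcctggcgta
Top2a, chr11:99024160-99024309, minus strand: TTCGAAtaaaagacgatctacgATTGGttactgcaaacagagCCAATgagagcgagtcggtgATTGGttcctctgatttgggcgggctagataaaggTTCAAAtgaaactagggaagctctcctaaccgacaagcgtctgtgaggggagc
In the Cdk1 window a CHR stood at -71 and another at -15, counted from 0 at the start site, beside CCAAT letters at -80 and -48. Ccnb2 held 3 CCAAT boxes at -87, -54 and -21 before a CHR at 4. Top2a also held 3, before a CHR at -23, while Kif15 held a CHR at -19 and no CCAAT. The windows of Birc5, Mad2l1, Nuf2 and Nusap1 held none of the motifs, which says only that the letters are not there. A match describes a sequence and is not evidence that a factor was bound.

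Depth set what could be seen. The pools held 338474 counts (AZD5363+MK1775+anti-PD-1), 26639 (AZD5363+MK1775), 25521 (KS100+anti-PD-1), 44748 (KS100), 1002088 (anti-PD-1) and 1591673 (control), a 62.4-fold range. The 3 counts that a gene at 0 could still hold correspond to 8.86, 113, 118, 67.0, 2.99 and 1.88 CPM (counts scaled to a common library size) in that order of pools. Mitochondrial genes took 13.2% to 19.8% of counts in the 4 inhibitor pools, against 1.29% to 1.89% in the pools without inhibitor. Ribosomal RNA genes took 27.4% in AZD5363+MK1775+anti-PD-1 tumours, against 0.121% in control tumours. These shares overlap and cannot be added, since the mitochondrial ribosomal RNA genes count in both. With 1 library per treatment no comparison of 2 pools has a replicate check, and intervals are 95% exact intervals that cover counting error only. In these comparisons genes were called higher or lower by a size rule, where either pool held at least 20 counts. The rule asks for a ratio of TMM-normalised counts of at least 2 in either direction, with an interval wholly beyond 1.5-fold. TMM is a scaling that assumes that most genes are alike between libraries.

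All 40 genes were detected in the AZD5363+MK1775+anti-PD-1, anti-PD-1 and control pools, 31 in AZD5363+MK1775 tumours, 26 in KS100+anti-PD-1 tumours and 31 in KS100 tumours. Their counts summed to 1585 in AZD5363+MK1775+anti-PD-1 tumours, 133 in AZD5363+MK1775 tumours, 79 in KS100+anti-PD-1 tumours, 126 in KS100 tumours, 7077 in anti-PD-1 tumours and 12566 in control tumours. As a share of all counts this was 0.468% (0.446 to 0.492) in AZD5363+MK1775+anti-PD-1 tumours, 0.499% (0.418 to 0.591) in AZD5363+MK1775 tumours, 0.310% (0.245 to 0.386) in KS100+anti-PD-1 tumours, 0.282% (0.235 to 0.335) in KS100 tumours, 0.706% (0.690 to 0.723) in anti-PD-1 tumours and 0.789% (0.776 to 0.803) in control tumours. By this measure all 4 inhibitor pools held a smaller share than both pools without an inhibitor, but for AZD5363+MK1775+anti-PD-1 tumours this depended on the denominator. As a share of nuclear protein-coding counts alone, the genes made up 0.722% in AZD5363+MK1775+anti-PD-1 tumours, 0.610% in AZD5363+MK1775 tumours, 0.519% in KS100+anti-PD-1 tumours, 0.387% in KS100 tumours, 0.726% in anti-PD-1 tumours and 0.817% in control tumours, so the first of these was close to anti-PD-1 tumours. With every pool thinned to 25521 counts, the genes kept 108, 128, 79 and 70 counts in the AZD5363+MK1775+anti-PD-1, AZD5363+MK1775, KS100+anti-PD-1 and KS100 pools, against 160 in anti-PD-1 tumours and 194 in control tumours. In pooled tissue, fewer dividing cells and less of these RNAs per cell cannot be told apart.

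**Figure D1:**
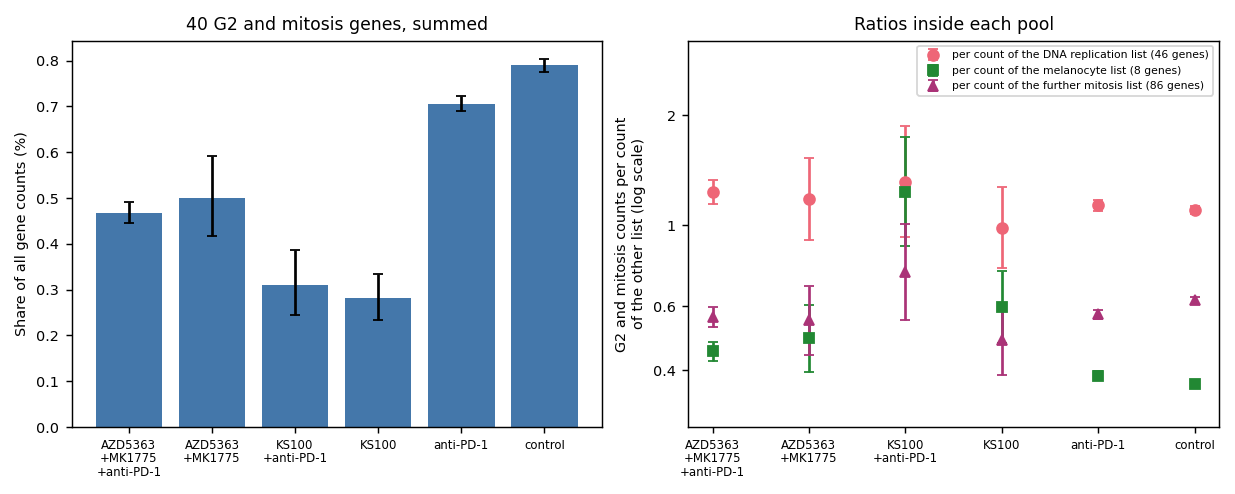
Left, the summed counts of the 40 genes as a share of all gene counts in each pool (%), with 95% exact binomial intervals; right, the counts of the 40 genes per count of 3 other lists inside the same pool (log scale), with 95% exact intervals. The share lies between 0.282% and 0.499% in the 4 inhibitor pools, against 0.706% and 0.789% in the anti-PD-1 and control pools. Of nuclear protein-coding counts, which are not plotted, the share was 0.722% in AZD5363+MK1775+anti-PD-1 tumours and 0.726% in anti-PD-1 tumours, so the gap on the left depends on the denominator for that pool. The ratio to DNA replication counts lies between 0.984 and 1.32 in all 6.

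A ratio between gene lists inside a library does not depend on how libraries are scaled. Per count of 46 DNA replication genes, the mitosis genes gave 1.23 counts (1.15 to 1.33) in AZD5363+MK1775+anti-PD-1 tumours, 1.18 (0.909 to 1.53) in AZD5363+MK1775 tumours, 1.32 (0.929 to 1.87) in KS100+anti-PD-1 tumours, 0.984 (0.764 to 1.27) in KS100 tumours, 1.13 (1.09 to 1.17) in anti-PD-1 tumours and 1.10 (1.07 to 1.13) in control tumours. Only AZD5363+MK1775+anti-PD-1 tumours had an interval clear of that of control tumours. In the other 3 inhibitor pools the intervals were wide and held the control value. Per count of the further mitosis genes described below, the ratio was 0.623 (0.609 to 0.637) in control tumours. It was lower in anti-PD-1 (0.569, 0.553 to 0.586), AZD5363+MK1775+anti-PD-1 (0.560, 0.526 to 0.596) and KS100 (0.485, 0.389 to 0.602) tumours. These intervals were clear of that of control tumours. AZD5363+MK1775 tumours, at 0.550 (0.441 to 0.682), and KS100+anti-PD-1 tumours, higher at 0.745 (0.550 to 1.01), had intervals that held the control value. Per count of 8 melanocyte genes, which mark the tumour cells, the ratio was 0.451 (0.425 to 0.479) in AZD5363+MK1775+anti-PD-1 tumours, 0.491 (0.396 to 0.606) in AZD5363+MK1775 tumours, 1.23 (0.877 to 1.74) in KS100+anti-PD-1 tumours, 0.597 (0.475 to 0.748) in KS100 tumours, 0.387 (0.376 to 0.398) in anti-PD-1 tumours and 0.368 (0.361 to 0.376) in control tumours. Relative to pigment cell transcripts the mitosis genes were thus higher in each of the 4 inhibitor pools than in control. The melanocyte list itself held 1.04%, 1.02%, 0.251% and 0.472% of counts in the AZD5363+MK1775+anti-PD-1, AZD5363+MK1775, KS100+anti-PD-1 and KS100 pools, against 1.83% in anti-PD-1 tumours and 2.14% in control tumours, and its gene Tyr was at 0 in the AZD5363+MK1775, KS100 and KS100+anti-PD-1 pools.

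The first role group starts mitosis. Cdk1 (chr10:69335146-69352938, GRCm38), the kinase itself, had 30 counts in AZD5363+MK1775+anti-PD-1 tumours, 12 in AZD5363+MK1775 tumours, 1 in KS100+anti-PD-1 tumours, 3 in KS100 tumours, 460 in anti-PD-1 tumours and 1096 in control tumours. In TMM-normalised CPM these were 131, 390, 34.9 and 71.3 in the 4 inhibitor pools in that order, against 408 in anti-PD-1 tumours and 637 in control tumours. Its share of the counts of all 40 genes was 1.89% (1.28 to 2.69) in AZD5363+MK1775+anti-PD-1 tumours, against 8.72% (8.23 to 9.23) in control tumours. Cdk1 was thus low in AZD5363+MK1775+anti-PD-1 tumours also relative to the other mitosis genes of the same library, while in AZD5363+MK1775 tumours its share was 9.02% (4.75 to 15.2).

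Among its cyclins, Ccna2 (cyclin A2) had 26 counts in AZD5363+MK1775+anti-PD-1 tumours, 3 in AZD5363+MK1775 tumours, 0 in KS100+anti-PD-1 tumours, 1 in KS100 tumours, 278 in anti-PD-1 tumours and 431 in control tumours. Ccnb1 (cyclin B1) had 13 and 1 counts in the AZD5363+MK1775 pools with and without anti-PD-1, 0 and 3 in the KS100 pools with and without it, 138 in anti-PD-1 tumours and 216 in control tumours. For Ccnb2 (cyclin B2) the counts were 12 and 2 in the AZD5363+MK1775 pools with and without anti-PD-1, 0 and 1 in the KS100 pools with and without it, 136 in anti-PD-1 tumours and 154 in control tumours. All 3 cyclins had no count in KS100+anti-PD-1 tumours, where up to 118 CPM could go unseen. The CDK1-activating phosphatases Cdc25b and Cdc25c had at most 96 and 12 counts in any pool. The group's 6 genes together took 5.87% of the mitosis counts in AZD5363+MK1775+anti-PD-1 tumours, 14.3% in AZD5363+MK1775 tumours, 3.8% in KS100+anti-PD-1 tumours, 7.94% in KS100 tumours, 15.1% in anti-PD-1 tumours and 16% in control tumours.

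The chromosomal passenger complex corrects faulty spindle attachments and later serves cytokinesis. Birc5 (survivin), which was the member with the most control counts, had 96 counts in AZD5363+MK1775+anti-PD-1 tumours, 13 in AZD5363+MK1775 tumours, 8 in KS100+anti-PD-1 tumours, 29 in KS100 tumours, 991 in anti-PD-1 tumours and 1887 in control tumours. It took 6.06% (4.93 to 7.35) of the mitosis counts in AZD5363+MK1775+anti-PD-1 tumours and 23.0% (16 to 31.4) in KS100 tumours, against 15.0% (14.4 to 15.7) in control tumours. Its share was thus low in the first of these pools and high in the second. Aurkb, the kinase of the complex, had 14 and 5 counts in the AZD5363+MK1775 pools with and without anti-PD-1, 1 and 3 in the KS100 pools with and without it, 93 in anti-PD-1 tumours and 159 in control tumours. The scaffold gene Incenp had 23 and 3 counts in the AZD5363+MK1775 pools with and without anti-PD-1, 0 and 1 in the KS100 pools with and without it, 159 in anti-PD-1 tumours and 186 in control tumours. Cdca8 (borealin) had 32 and 3 counts in the AZD5363+MK1775 pools with and without anti-PD-1, 1 and 2 in the KS100 pools with and without it, 122 in anti-PD-1 tumours and 233 in control tumours. Outside Birc5, no gene of the complex had over 5 counts in the 3 shallow pools.

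Kinetochore and checkpoint genes split by pool. Mad2l1 (MAD2), which binds CDC20 to restrain the anaphase-promoting complex, had 13 counts in AZD5363+MK1775+anti-PD-1 tumours, 10 in AZD5363+MK1775 tumours, 2 in KS100+anti-PD-1 tumours, 5 in KS100 tumours, 334 in anti-PD-1 tumours and 587 in control tumours. Cenpe (chr3:135212537-135273611), a kinetochore motor, had 67 counts in AZD5363+MK1775+anti-PD-1 tumours, 1 in AZD5363+MK1775 tumours, 3 in KS100+anti-PD-1 tumours, 2 in KS100 tumours, 46 in anti-PD-1 tumours and 73 in control tumours. AZD5363+MK1775+anti-PD-1 tumours thus held nearly as many Cenpe counts as the far deeper control pool, and few Mad2l1 counts. Cenpf, a large kinetochore protein gene, had 72 and 8 counts in the AZD5363+MK1775 pools with and without anti-PD-1, 10 and 1 in the KS100 pools with and without it, 136 in anti-PD-1 tumours and 194 in control tumours. The checkpoint kinase gene Ttk (MPS1) had 32 and 1 counts in the AZD5363+MK1775 pools with and without anti-PD-1, 1 and 3 in the KS100 pools with and without it, 70 in anti-PD-1 tumours and 79 in control tumours.

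Bub1, another checkpoint kinase gene, had 32 and 1 counts in the AZD5363+MK1775 pools with and without anti-PD-1, 0 in each KS100 pool, 67 in anti-PD-1 tumours and 121 in control tumours. Its relative Bub1b (BUBR1) had 28 and 0 counts in the AZD5363+MK1775 pools with and without anti-PD-1, 1 and 0 in the KS100 pools with and without it, 132 in anti-PD-1 tumours and 224 in control tumours. The microtubule-binding subunits Ndc80 and Nuf2 are partners in 1 complex. Ndc80 had 14 and 0 counts in the AZD5363+MK1775 pools with and without anti-PD-1, 1 and 0 in the KS100 pools with and without it, 52 in anti-PD-1 tumours and 101 in control tumours. Nuf2 had 23 and 0 counts in the AZD5363+MK1775 pools with and without anti-PD-1, 1 and 0 in the KS100 pools with and without it, 84 in anti-PD-1 tumours and 140 in control tumours. Bub1b, Ndc80 and Nuf2 were at 0 in both the AZD5363+MK1775 and KS100 tumours. The group of 8 took 17.7% of the mitosis counts in AZD5363+MK1775+anti-PD-1 tumours, 15.8% in AZD5363+MK1775 tumours, 24.1% in KS100+anti-PD-1 tumours, 8.73% in KS100 tumours, 13.0% in anti-PD-1 tumours and 12.1% in control tumours.

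Of the partners of the anaphase-promoting complex, Ube2c, its ubiquitin-conjugating enzyme, had 28 and 0 counts in the AZD5363+MK1775 pools with and without anti-PD-1, 0 and 3 in the KS100 pools with and without it, 121 in anti-PD-1 tumours and 166 in control tumours. Ube2c overlaps the muscle gene Tnnc2 on the other strand, which had 259 counts in AZD5363+MK1775+anti-PD-1 tumours and 7 in control tumours, and the strand setting of the counting is not given, so its value there is uncertain. Ccna2, Cdc25b, Cdca8, Cdc20, Nusap1, Prc1 and Kif20a also overlap a gene with counts on the other strand. The activator gene Cdc20 reached 90 counts at most, with 0 in KS100+anti-PD-1 tumours. Of 40 genes, 11 had another gene with at least 95% identity over at least 100 of their last 500 bases, where these libraries read, so their single values are uncertain. They were Ccnb1, Ccna2, Cenpf, Ndc80, Ube2c, Kif11, Kif2c, Kpna2, Prc1, Kif20a and Mki67. Matches on either strand counted. For Ccna2 and Kif20a the only match was the gene that overlaps them on the other strand, and Prc1 also matched its overlapping gene.

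Spindle assembly is the largest group, with 11 genes. Plk1 (polo-like kinase 1), which acts at centrosomes and kinetochores and promotes mitotic entry, had 129 counts in AZD5363+MK1775+anti-PD-1 tumours, 8 in AZD5363+MK1775 tumours, 5 in KS100+anti-PD-1 tumours, 13 in KS100 tumours, 809 in anti-PD-1 tumours and 1879 in control tumours. Its share of the mitosis counts was 8.14% in AZD5363+MK1775+anti-PD-1 tumours, 6.02% in AZD5363+MK1775 tumours, 6.33% in KS100+anti-PD-1 tumours, 10.3% in KS100 tumours, 11.4% in anti-PD-1 tumours and 15.0% in control tumours. In value, every treated pool had a smaller Plk1 share than control. Kif15 (chr9:122951046-123018733), a spindle motor, had 28 counts in AZD5363+MK1775+anti-PD-1 tumours, 1 in AZD5363+MK1775 tumours, 0 in KS100+anti-PD-1 tumours, 0 in KS100 tumours, 320 in anti-PD-1 tumours and 360 in control tumours. It was among the more abundant members without inhibitor and had no count in either KS100 pool. Aurka, the centrosomal Aurora kinase, had 19 and 0 counts in the AZD5363+MK1775 pools with and without anti-PD-1, 0 and 1 in the KS100 pools with and without it, 136 in anti-PD-1 tumours and 250 in control tumours. Its activator Tpx2 had 31 and 3 counts in the AZD5363+MK1775 pools with and without anti-PD-1, 1 and 2 in the KS100 pools with and without it, 88 in anti-PD-1 tumours and 104 in control tumours.

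Kif22, a motor that pushes chromosome arms from the poles, had 12 and 3 counts in the AZD5363+MK1775 pools with and without anti-PD-1, 0 and 2 in the KS100 pools with and without it, 72 in anti-PD-1 tumours and 162 in control tumours. Ckap2, a spindle-associated protein gene, had 9 and 0 counts in the AZD5363+MK1775 pools with and without anti-PD-1, 3 and 1 in the KS100 pools with and without it, 64 in anti-PD-1 tumours and 175 in control tumours. Nusap1, whose protein bundles spindle microtubules, had 22 and 0 counts in the AZD5363+MK1775 pools with and without anti-PD-1, 1 in each KS100 pool, 41 in anti-PD-1 tumours and 69 in control tumours. The importin gene Kpna2, which carries spindle assembly factors, was uneven between the deep pools. It had 7 and 1 counts in the AZD5363+MK1775 pools with and without anti-PD-1, 1 and 0 in the KS100 pools with and without it, 2 in anti-PD-1 tumours and 46 in control tumours. The remaining spindle genes, the motors Kif11 and Kif2c and the microtubule-binding Hmmr, had at most 84 counts in any pool. The group took 18.8% of the mitosis counts in AZD5363+MK1775+anti-PD-1 tumours, 15.0% in AZD5363+MK1775 tumours, 17.7% in KS100+anti-PD-1 tumours, 17.5% in KS100 tumours, 23.5% in anti-PD-1 tumours and 26.0% in control tumours.

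In the central spindle and cytokinesis group, Prc1, which bundles midzone microtubules, had 60 and 2 counts in the AZD5363+MK1775 pools with and without anti-PD-1, 0 and 8 in the KS100 pools with and without it, 134 in anti-PD-1 tumours and 238 in control tumours. Kif23 and Racgap1 encode the partners of centralspindlin. Kif23 had 40 and 5 counts in the AZD5363+MK1775 pools with and without anti-PD-1, 6 and 9 in the KS100 pools with and without it, 94 in anti-PD-1 tumours and 164 in control tumours. Racgap1 had 53 and 1 counts in the AZD5363+MK1775 pools with and without anti-PD-1, 2 and 6 in the KS100 pools with and without it, 170 in anti-PD-1 tumours and 262 in control tumours. Ect2, which activates the small GTPase RhoA at the cut, had 20 and 6 counts in the AZD5363+MK1775 pools with and without anti-PD-1, 1 and 2 in the KS100 pools with and without it, 202 in anti-PD-1 tumours and 234 in control tumours. The ring scaffold gene Anln had 27 and 5 counts in the AZD5363+MK1775 pools with and without anti-PD-1, 0 and 1 in the KS100 pools with and without it, 119 in anti-PD-1 tumours and 162 in control tumours. The motor gene Kif20a had at most 47 counts. These 6 genes took 12.9% of the mitosis counts in AZD5363+MK1775+anti-PD-1 tumours, 15.0% in AZD5363+MK1775 tumours, 11.4% in KS100+anti-PD-1 tumours, 20.6% in KS100 tumours, 10.7% in anti-PD-1 tumours and 8.81% in control tumours.

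The last group shapes mitotic chromosomes. Top2a (topoisomerase II alpha), which untangles sister chromatids, had 338 counts in AZD5363+MK1775+anti-PD-1 tumours, 15 in AZD5363+MK1775 tumours, 10 in KS100+anti-PD-1 tumours, 8 in KS100 tumours, 839 in anti-PD-1 tumours and 1451 in control tumours. Smc4 (chr3:69004738-69034623), a condensin subunit, had 124 counts in AZD5363+MK1775+anti-PD-1 tumours, 8 in AZD5363+MK1775 tumours, 2 in KS100+anti-PD-1 tumours, 6 in KS100 tumours, 106 in anti-PD-1 tumours and 190 in control tumours. Mki67 (Ki-67), which coats mitotic chromosomes and is widely used as a mark of cycling cells, had 40 and 2 counts in the AZD5363+MK1775 pools with and without anti-PD-1, 12 and 4 in the KS100 pools with and without it, 160 in anti-PD-1 tumours and 302 in control tumours. Top2a took 21.3% (19.3 to 23.4) of the mitosis counts in AZD5363+MK1775+anti-PD-1 tumours, against 11.5% (11 to 12.1) in control tumours, and Smc4 took 7.82% (6.55 to 9.26), against 1.51% (1.31 to 1.74). The group as a whole took 31.7% (29.4 to 34.0) in AZD5363+MK1775+anti-PD-1 tumours, 18.8% in AZD5363+MK1775 tumours, 30.4% in KS100+anti-PD-1 tumours, 14.3% in KS100 tumours, 15.6% in anti-PD-1 tumours and 15.5% (14.8 to 16.1) in control tumours.

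**Figure D2:**
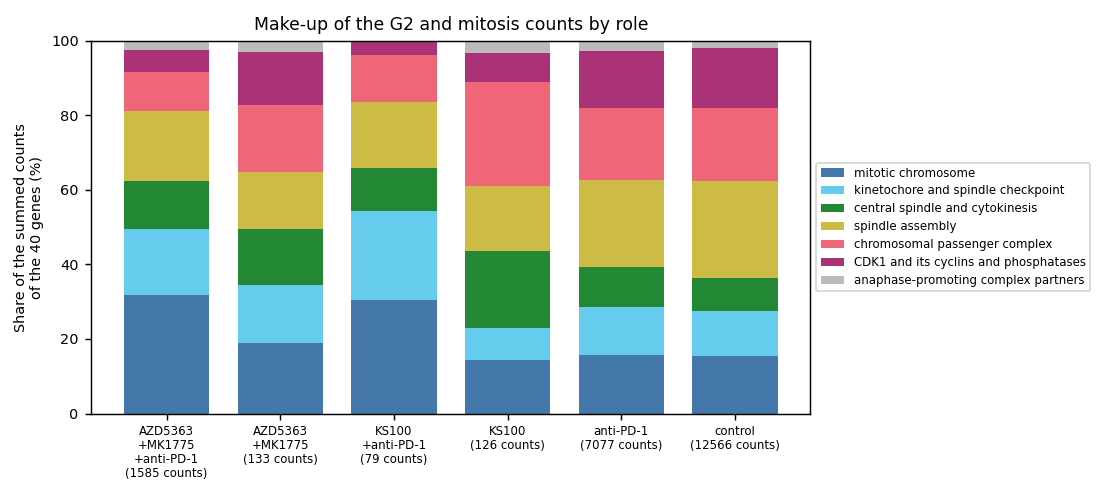
Share of the summed counts of the 40 genes (%) that each of the 7 role groups took in each pool, as stacked bars with the pool's summed counts under each bar. Mitotic chromosome genes take 31.7% in AZD5363+MK1775+anti-PD-1 tumours, against 15.5% in control tumours, and CDK1 with its cyclins and phosphatases takes 5.87%, against 16%.

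AZD5363+MK1775+anti-PD-1 against control was the inhibitor comparison with the most counts. The mitosis genes moved in both directions there. Cdk1, Mad2l1 and Birc5 were lower, at ratios of 0.206 (0.138 to 0.296), 0.167 (0.0883 to 0.288) and 0.383 (0.309 to 0.471). Cenpe was 6.92-fold higher (4.89 to 9.77), Smc4 4.92-fold (3.89 to 6.2), Ttk 3.05-fold (1.96 to 4.66) and Cenpf 2.80-fold (2.1 to 3.68). By the size rule 3 of 39 genes tested were lower (7.69%), against 8.08% of all 8059 genes tested, and 4 were higher, against 14.7% of all. Both shares were near or below those of all genes, so the number of calls says nothing about these genes in particular. Their median log2 ratio was 0.05, against -0.02 over all genes tested, with 19 ratios below 1 and 20 above.

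The role groups differed within this comparison. CDK1 with its cyclins and phosphatases summed to 0.350 of control (0.281 to 0.430) and the chromosomal passenger complex to 0.504 (0.428 to 0.591), and both were below 1 under all 5 scalings tried. Besides Cdk1, Ccna2 stood at 0.455 (0.294 to 0.675), Ccnb1 at 0.454 (0.238 to 0.792) and Ccnb2 at 0.587 (0.297 to 1.06), none past the rule. Spindle assembly genes summed to 0.687 (0.608 to 0.773), with Plk1 at 0.517 (0.429 to 0.619), Aurka at 0.573, Kif15 at 0.586 and Ckap2 at 0.388, and with Tpx2 at 2.25, Nusap1 at 2.40 and Kif11 at 2.1, none past the rule. The mitotic chromosome genes summed to 1.95-fold of control (1.76 to 2.15) and to 1.21-fold with library totals as the scaling, the lowest of the 5. Top2a stood at 1.76 (1.55 to 1.98) and Mki67 at 0.998 (0.699 to 1.39). Kinetochore genes summed to 1.39 (1.22 to 1.58) and cytokinesis genes to 1.40 (1.2 to 1.62), but with library totals these were 0.870 and 0.871, on the other side of 1. The sum of all 40 genes was 0.951 of control (0.902 to 1.00), and 0.593 with library totals.

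Library totals lowered every log2 ratio of this comparison by -0.68, and TMM computed from the 2 pools alone by -0.44. With library totals 12 members were lower and 2 higher, in place of 3 and 4: Cenpe stayed past the rule at 4.32-fold and Smc4 at 3.07-fold, while Ttk at 1.90-fold and Cenpf at 1.75-fold did not. With 2-pool TMM 8 members were lower, and Ttk, at 2.26-fold, was no longer past the rule. The share of all genes called was computed with the main scaling only, here and in the comparisons below. Counts of members under other scalings therefore say nothing about these genes in particular. Cdk1, Birc5 and Mad2l1 stayed lower under each of these scalings, between 0.104 and 0.385. Cenpf shares a stretch of its 3′ end with other genes, so its value is uncertain as a single gene. Markers of other cells differed between these pools as well. The 8 skeletal muscle genes summed to 2831 counts in AZD5363+MK1775+anti-PD-1 tumours and 86 in control tumours. The 8 macrophage genes summed to 124 and 176, and the 8 fibroblast genes to 157 and 282, in the same order of pools. The 8 T cell genes summed to 19 and 9. These sums are not scaled for depth. As ratios of TMM-normalised counts, muscle genes stood at 248 and T cell genes at 15.9 (6.86 to 39.9). Macrophage genes stood at 5.31 (4.18 to 6.72), with C1qa and C1qc called higher. Fibroblast genes stood at 4.2 (3.43 to 5.12), with Col1a2 and Col3a1 called higher but Fbln1 called lower, at 0.175 (0.0209 to 0.653). The 6 erythroid genes summed lower, at 0.182 (0.113 to 0.277), though 2 of the 4 tested had ratios above 1. The 8 melanocyte genes stood at 0.776 (0.749 to 0.803). Among them Mlana, at 0.286, and Slc45a2, at 0.354, were called lower and Tyr, at 3.98-fold (2.42 to 6.41), higher. The part of these cells in the mitosis values was not tested.

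**Figure D3:**
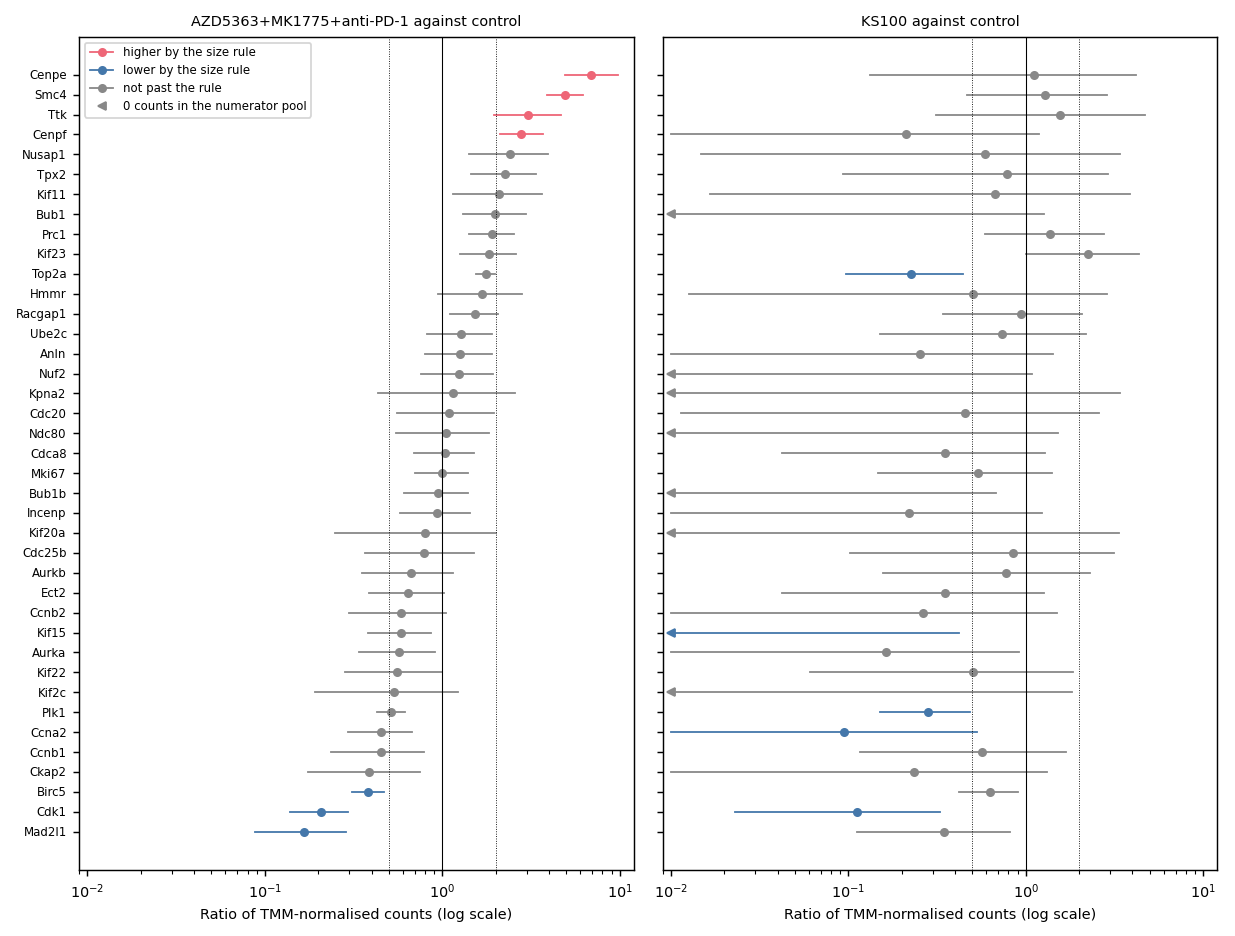
Ratio of TMM-normalised counts (log scale) with 95% exact intervals for each gene tested, AZD5363+MK1775+anti-PD-1 against control on the left and KS100 against control on the right. On the left Cenpe at 6.92 and Smc4 at 4.92 lie highest and Mad2l1 at 0.167 lowest among genes called, and on the right all 5 genes called lie below 1.

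**Figure D4:**
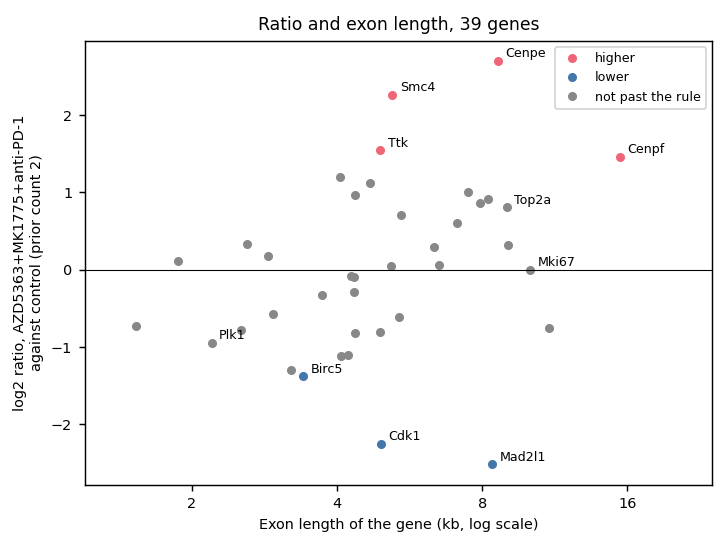
The log2 ratio of AZD5363+MK1775+anti-PD-1 against control (prior count 2) plotted on the exon length of each of the 39 genes tested (kb, log scale). Cenpe and Smc4 lie highest, at exon lengths of 8620 and 5210 bases, and Mad2l1 lies lowest at 8390 bases.

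Exon length was set beside these ratios because the pools differ in RNA make-up. Across the 39 genes tested, the log2 ratio and log exon length had a Pearson r of 0.32 and a Spearman rho of 0.38 in AZD5363+MK1775+anti-PD-1 against control. Across all 7858 genes tested with a length, the values were 0.30 and 0.31, so longer genes tended to higher ratios in this pool in general. In KS100 against control the 39 genes gave -0.01 and 0.05, against 0.24 and 0.23 over all genes. In KS100+anti-PD-1 against control they gave 0.31 and 0.25, against 0.31 and 0.29 over all genes. For AZD5363+MK1775 against control they gave 0.14 and 0.16, against 0.07 and 0.07. For anti-PD-1 against control they gave 0.16 and 0.11, against 0.10 and 0.09. Genes are not independent replicates and share the same 2 libraries, so these correlations are descriptions.

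The same pool was set against anti-PD-1 alone, to ask what the inhibitors did beside the antibody. Cdk1 was lower at 0.322 (0.215 to 0.466), Mad2l1 at 0.192 (0.101 to 0.333), Birc5 at 0.478 (0.384 to 0.590) and Kif15 at 0.432 (0.283 to 0.636). Cenpe was 7.19-fold higher (4.87 to 10.7), Smc4 5.78-fold (4.42 to 7.56), Nusap1 2.65-fold (1.5 to 4.55), Cenpf 2.61-fold (1.94 to 3.50) and Prc1 2.21-fold (1.60 to 3.02). These were 4 lower and 5 higher of 38 tested, against 8.04% and 14.1% of all genes tested. Top2a, at 1.99-fold (1.75 to 2.26), and Plk1, at 0.787 (0.649 to 0.949), were not past the rule. Nusap1 and Prc1 were not past it with library totals, with nuclear protein-coding totals or with 2-pool TMM, Nusap1 was not with DESeq2 size factors and Cenpf was not with library totals, and with library totals 10 members were lower and 2 higher. Summed, the members stood at 1.11 (1.05 to 1.17), but 0.663 with library totals, 0.994 with nuclear protein-coding totals and 0.863 with 2-pool TMM. This comparison and the one against control share AZD5363+MK1775+anti-PD-1 tumours, so they are not independent.

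AZD5363+MK1775 against control shows the kinase inhibitors given with control IgG. Plk1 was lower at 0.238 (0.103 to 0.470) and Birc5 at 0.385 (0.205 to 0.660). These were 2 of 39 genes tested, against 1.25% of all genes tested, and none was higher, against 1.67% of all. Because the pool was shallow, a count of 0 would have been called lower for 7 members only (Cdk1, Ccna2, Birc5, Mad2l1, Plk1, Kif15 and Top2a), and among all 1066 such genes 9.29% were called. Birc5 was not past the rule with DESeq2 size factors (0.425), library totals (0.412) or nuclear protein-coding totals (0.486), while Plk1 was, between 0.197 and 0.300. Cdk1 stood at 0.612 (0.315 to 1.07), Top2a at 0.578 (0.323 to 0.956) and Mad2l1 at 0.952. Smc4, on 8 counts, stood at 2.35 and Cenpf, also on 8, at 2.30. The summed ratio was 0.592 (0.495 to 0.702), with spindle assembly genes at 0.342 (0.208 to 0.529) and cytokinesis genes at 1.01 (0.614 to 1.57), or 0.838 with 2-pool TMM. The median log2 ratio of the members was -0.65, against -0.94 over all genes tested. All 8 skeletal muscle, all 8 macrophage and all 8 T cell markers were at 0 in this pool. The upper limits of their summed ratios were 2.45, 1.18 and 28.3 in that order. At this depth the counts of 0 thus do not show that these cells were fewer than in control tumours. The 8 melanocyte genes stood at 0.444 (0.392 to 0.500), with 4 of 8 called lower. The part of any of these cells in the mitosis values was not tested.

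Adding anti-PD-1 to AZD5363+MK1775 was compared on 24 members. Cenpe was 9.03-fold higher, with an interval from 1.57 to 362, and Top2a 3.04-fold higher (1.82 to 5.49). These were 2 of 24, against 10.9% of all genes tested, and none was lower, against 3.8% of all. Neither was past the rule with library totals or with nuclear protein-coding totals, and Cenpe was not with DESeq2 size factors. The summed ratio was 1.61 (1.35 to 1.93), but 0.938 with library totals. Among all genes tested the median log2 ratio was 0.98, against 1.11 for the members, so higher values were common among all genes here. All 8 muscle markers were called higher in this comparison too, from 0 counts in AZD5363+MK1775 tumours, and their part was not tested.

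KS100 against control asked what the aldehyde dehydrogenase inhibitor did alone. Members called were lower only. Cdk1 stood at 0.112 of control (0.023 to 0.328), Ccna2 at 0.0949 (0.0024 to 0.531) on 1 count, Top2a at 0.225 (0.0971 to 0.445) and Plk1 at 0.283 (0.150 to 0.485), and Kif15, at 0 counts against 360, was at least 2.94-fold lower. These were 5 of 39 genes tested (12.8%), against 2.7% of all genes tested, and none was higher, against 3.89% of all. A count of 0 could be called for 13 of the members, and of all 1497 such genes 14.4% were called lower. Birc5, at 0.628 (0.420 to 0.905), and the cytokinesis motor gene Kif23, at 2.24 (1.01 to 4.36) on 9 counts, were not past the rule. All 5 members stayed past the rule under each of the other 4 scalings, and Cdk1 alone did with both pools thinned to 25521 counts. The summed ratio was 0.410 (0.341 to 0.489) and the median log2 ratio -1.38, against -0.61 over all genes tested. By role, CDK1 with its cyclins and phosphatases summed to 0.204 (0.0976 to 0.376), spindle genes to 0.275 (0.172 to 0.417), kinetochore genes to 0.296 (0.147 to 0.531), chromosome genes to 0.379 (0.224 to 0.600), the passenger complex to 0.581 (0.403 to 0.810) and cytokinesis genes to 0.960 (0.624 to 1.41). Cytokinesis genes were thus the group nearest to control, and their sum lay above 1 with DESeq2 size factors (1.15) and with nuclear protein-coding totals (1.11). Markers of other cells differed as well. The 8 fibroblast genes summed to 22 counts in KS100 tumours and 282 in control tumours, a ratio of 3.19 (1.97 to 4.93), with Col1a2 called higher and Lum and Pdgfra at 0 in KS100 tumours. The 8 endothelial genes summed to 20 and 281 in the same order, a ratio of 2.91 (1.75 to 4.58), with Pecam1 and Emcn called higher and Cdh5, Plvap, Esam and Tie1 at 0 in KS100 tumours. The 8 melanocyte genes stood at 0.253 (0.220 to 0.289), with 5 of 8 called lower and Tyr at 0. The part of these cells in the mitosis values was not tested.

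Part of the counts of the KS100 pools came from genes that are silent in both pools without inhibitor. A set of 8742 protein-coding genes at 0 in the anti-PD-1 and control pools took 4.47% of counts in KS100 tumours and 9.15% in KS100+anti-PD-1 tumours, against 0.360% in AZD5363+MK1775+anti-PD-1 tumours and 0.717% in AZD5363+MK1775 tumours. At their rate per base of exon, 16.4 of the 126 mitosis counts in the KS100 pool (13.0%) and 19.2 of the 79 in the KS100+anti-PD-1 pool (24.3%) would be background. With this taken off, the KS100+anti-PD-1 sum was 0.286 of control. Where no inhibitor was given the rate is 0 by the choice of genes, so this step can only lower the ratio. It also assumes that none of these genes is truly expressed in treated tumours and that reads spread evenly over exon bases. Whether these counts are background was not tested.

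KS100+anti-PD-1 against control rested on the shallowest pool. Cdk1 stood at 0.0549 (0.00139 to 0.306) on 1 count, Plk1 at 0.160 (0.0519 to 0.374) and Birc5 at 0.255 (0.110 to 0.503). Ccna2, at 0 counts, was at least 2.39-fold lower, and Kif15, also at 0 counts, had an upper limit of 0.619 for its ratio. These were 5 of 39 genes tested, against 5.86% of all genes tested, and none was higher, against 2.91%. A count of 0 could be called for 7 members, and among all 969 such genes 48.1% were called lower, so low values were common among genes of this depth. Top2a stood at 0.414 (0.198 to 0.764), Cenpf at 3.10 (1.46 to 5.82) and Mki67 at 2.39 (1.22 to 4.23), none past the rule, on 10, 10 and 12 counts. The summed ratio was 0.378 (0.299 to 0.471), and 0.197 to 0.679 over the other scalings. With DESeq2 size factors 1 member was lower, Cdk1, and with nuclear protein-coding totals 2 were lower, Cdk1 and Plk1. Under both of these scalings 2 were higher, Cenpf and Mki67. The median log2 ratio was -1.66, against -1.52 over all genes tested. The 8 skeletal muscle genes summed to 17 counts in KS100+anti-PD-1 tumours and 86 in control tumours, a ratio of 11.9 (6.62 to 20.2), with Acta1, Tnnt3, Ckm, Tnnc2 and Myh1 at 0 in KS100+anti-PD-1 tumours. The 8 fibroblast genes stood at a ratio of 3.2 (1.77 to 5.37), with Dcn, Lum and Pdgfra at 0, and the 8 endothelial genes at 1.93 (0.871 to 3.71), with Pecam1 called higher. The 8 melanocyte genes stood at 0.113 (0.0868 to 0.144), with 6 of 8 called lower and Tyr at 0. Their part in the mitosis values was not tested.

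Set against anti-PD-1 alone, 5 members were lower in KS100+anti-PD-1 tumours. Cdk1 stood at 0.0856 (0.00216 to 0.479), Plk1 at 0.243 (0.0788 to 0.570) and Birc5 at 0.318 (0.137 to 0.629), and Ccna2 and Kif15 were at least 2.35-fold and at least 2.71-fold lower. These were 5 of 38, against 6.31% of all genes tested, and none was higher, against 2.34%. With DESeq2 size factors or nuclear protein-coding totals none of the 5 was past the rule. A count of 0 would have been called lower for 7 members only. Summed, the members stood at 0.440 (0.348 to 0.549). Their median log2 ratio was -1.42, against -1.58 over all genes tested, so low values were common among all genes here. Against KS100 alone, Birc5 was the only member with enough counts to be tested, at 0.406 (0.160 to 0.909), and it was not past the rule, in a comparison where 54.5% of the 209 genes tested were lower and 4.31% higher. The summed ratio there was 0.922 (0.687 to 1.23).

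Anti-PD-1 against control was the comparison between the 2 deepest pools, and 1 of the mitosis genes was called in it. Kpna2 was lower at 0.0664 (0.0078 to 0.254), on 2 counts against 46, and genes alike to Kpna2 at the 3′ end make this value uncertain. This was 1 of 39 genes tested, against 2.2% of all genes tested, and none was higher, against 2.6%. Cdk1 stood at 0.641 (0.573 to 0.715), Plk1 at 0.657, Ckap2 at 0.558, Birc5 at 0.802 and Top2a at 0.883, and Kif15 at 1.36 and Ccnb2 at 1.35, none past the rule. In all, 27 ratios were below 1 and 12 above, with a median log2 ratio of -0.16, against -0.02 over all genes tested. The summed ratio was 0.860 (0.835 to 0.885), between 0.833 and 0.895 over the other scalings, with spindle genes at 0.775 (0.730 to 0.822) and cytokinesis genes at 1.04 (0.946 to 1.14). The sum of the 46 DNA replication genes was 0.834 (0.809 to 0.860). Other cells differed more. The 8 fibroblast markers summed to 1693 counts in anti-PD-1 tumours and 282 in control tumours, the 8 muscle markers to 707 and 86, and the 6 erythroid markers to 3657 and 911 in the same order, and their part in the mitosis values was not tested.

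**Figure D5:**
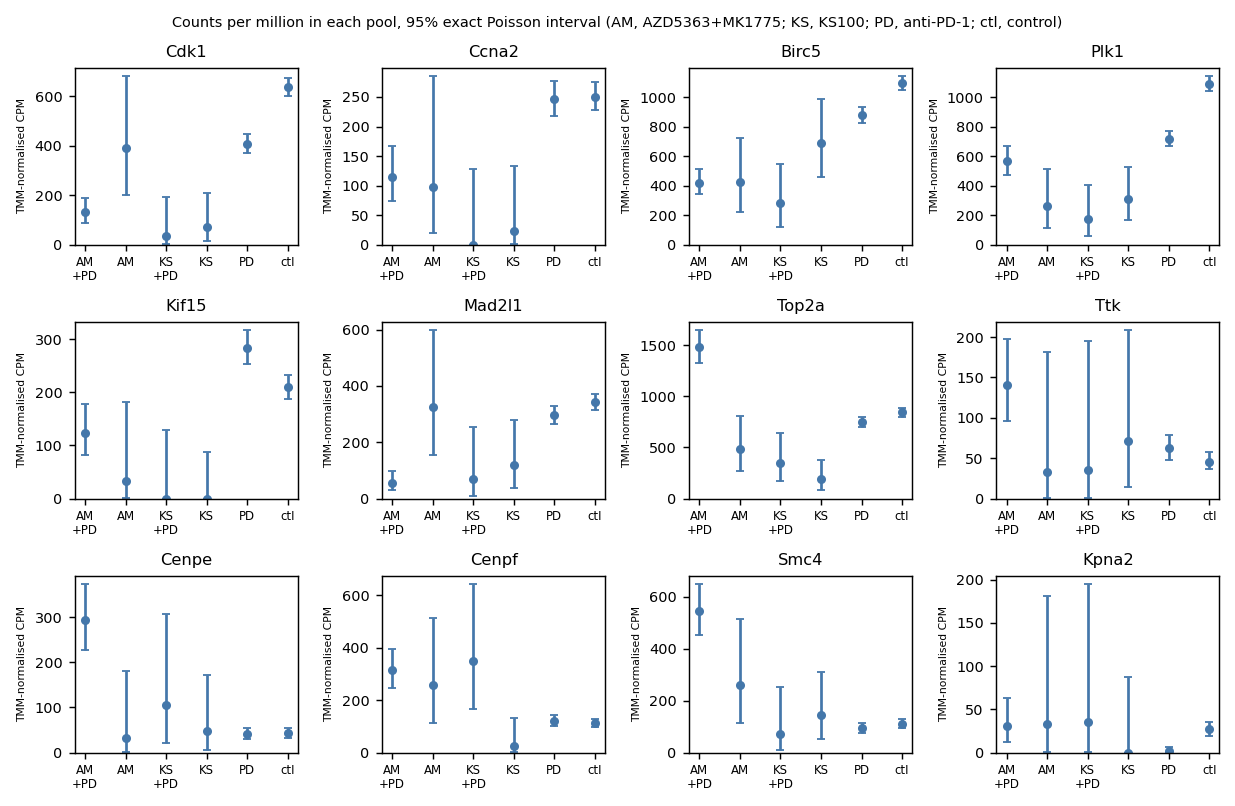
TMM-normalised CPM of members named in the text in each pool, 1 panel a gene, with 95% exact Poisson intervals; AM is AZD5363+MK1775, KS is KS100, PD is anti-PD-1 and ctl is control. Cdk1 stands at 131 in AZD5363+MK1775+anti-PD-1 tumours and 637 in control tumours, and the 3 shallow pools have wide intervals.

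With no replicate libraries, a test was possible only across treatments, by letting pools that share an inhibitor or the antibody stand for each other. A model in which inhibitor and antibody effects add, fitted to all 6 pools (edgeR quasi-likelihood, Benjamini-Hochberg adjustment over 4912 genes, 2 residual degrees of freedom) tested 34 of the 40 genes, without Kpna2, Cdc25c, Kif20a, Nusap1, Kif11 and Ndc80, which were below its count filter. In the KS100 arm Kif15 fell (edgeR adjusted p = 0.0144), on 0 counts in both KS100 pools against 360 in control tumours and 320 in anti-PD-1 tumours. This was 1 of 34 members called lower, against 0.489% of all genes, and none was called higher, against 7.21%. With any 1 of the control, anti-PD-1, KS100 or KS100+anti-PD-1 pools left out, no member was called in this arm. Cdk1, at a log2 change of -3.07 (SE 1.09, edgeR adjusted p = 0.0587), and Ccna2, at -3.84 (SE 1.39, edgeR adjusted p = 0.0662), did not pass, and neither did Plk1 at -1.56 (SE 0.88, edgeR adjusted p = 0.314). The members' median log2 change in the KS100 arm was -1.32, against -0.47 over all genes fitted.

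The AZD5363+MK1775 arm called none of the 34 members by edgeR, and none by DESeq2, against 1.34% of all genes by edgeR. By edgeR, 1 of the 34 members was at an unadjusted p under 0.05, against 423 of all 4912 genes. That member was Smc4, at a log2 change of 1.99 (SE 0.84, edgeR adjusted p = 0.353). The anti-PD-1 arm called none by edgeR or DESeq2, against 0.143% of all genes by edgeR. By edgeR 0 members were at an unadjusted p under 0.05, against 104 of all 4912 genes. Whether the antibody acted differently on these genes with and without each inhibitor could not be tested with 1 pool per treatment.

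The genes that regulate the members were measured in part. Wee1, the target of MK1775, had 1 count in AZD5363+MK1775+anti-PD-1 tumours, 1 in control tumours and 0 in the others. Pkmyt1 had 4 counts in AZD5363+MK1775+anti-PD-1 tumours, 43 in anti-PD-1 tumours, 78 in control tumours and 0 elsewhere, and its ratio in AZD5363+MK1775+anti-PD-1 tumours was 0.386 (0.103 to 1.03). Foxm1, a transcription factor that drives many of these genes, had 36 counts in AZD5363+MK1775+anti-PD-1 tumours, 1 in AZD5363+MK1775 tumours, 0 in both KS100 pools, 137 in anti-PD-1 tumours and 215 in control tumours, at 1.26 of control (0.861 to 1.80) in the first of these. Mybl2 had at most 4 counts in any pool. Members with a CHR near the start and those without it (23 and 10 genes) had median log2 ratios of 0.12 and -0.57 in AZD5363+MK1775+anti-PD-1 against control, -1.38 and -1.11 in KS100 against control, -1.72 and -0.72 in KS100+anti-PD-1 against control, -0.70 and -1.15 in AZD5363+MK1775 against control, and -0.18 and -0.22 in anti-PD-1 against control. The order of the 2 medians thus changed between comparisons.

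A further list of 86 mitosis genes outside the 40 also held genes on both sides in AZD5363+MK1775+anti-PD-1 against control. Of 77 tested, 12 were higher (15.6%, against 14.7% of all genes tested) and 6 lower (7.79%, against 8.08%), so both shares were near those of all genes. The summed ratio was 1.06 (1.02 to 1.10), but 0.659 with library totals, 0.781 with 2-pool TMM and 0.982 with nuclear protein-coding totals. The genes higher included the motor gene Kif20b at 26.1-fold (14.5 to 49.96) on 52 counts against 15, the kinetochore scaffold gene Knl1 at 7.05-fold (4.10 to 12.1), the phosphatase gene Cdc25a at 5.27-fold (3.90 to 7.09), and the condensin and cohesin genes Ncapd3 at 4.86-fold, Smc3 at 3.33-fold, Smc1a at 3.26-fold and Ncapg at 2.70-fold. The others were Aspm at 3.81-fold, Lin54 at 3.77-fold, Ckap5 at 3.21-fold, Sgo2a at 3.17-fold and Fbxo5 at 2.94-fold. Those lower were the CDK1-binding subunits Cks1b at 0.319 (0.248 to 0.404) and Cks2 at 0.252, with Dsn1 at 0.144, Anapc4 at 0.234, Nek2 at 0.271 and Pbk at 0.351. In KS100 against control 3 of 76 were lower, Bub3 at 0.134, Anapc11 at 0.0850 and Pbk at 0 counts (3.95%, against 2.7% of all genes tested), and none was higher, against 3.89% of all. In KS100+anti-PD-1 against control 8 of 76 were lower (10.5%, against 5.86% of all genes tested and 48.1% of those that a count of 0 would call) and Sgo2a higher (1.32%, against 2.91%). Those lower were Cks1b at 0.0707 (0.0086 to 0.256), the cohesin gene Rad21 at 0.232, the tubulin genes Tuba1c at 0.148, Tuba1b at 0.191 and Tubb5 at 0.227, and Tubb4b, Cenpa and Anapc5 at 0 counts. In AZD5363+MK1775 against control Tuba1b at 0.177 and Tuba1c at 0.444 were lower (2.63%, against 1.25% of all genes tested) and Knl1, on 4 counts, higher (1.32%, against 1.67%). In anti-PD-1 against control Stag2 was higher at 2.12-fold, 1 of 76 against 2.6% of all, and none was lower, against 2.2%. None of the 54 genes of this list tested in the edgeR model was called in any arm.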

How the data were processed

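Total RNA of pooled tumour tissue was made into 3′ end libraries (QuantSeq 3′ FWD, single reads), per the labels' protocols. The authors deposited whole-number read counts per Ensembl gene. The submitters' processing notes name bcl2fastq, HISAT2 2.1.0, HTSeq and build GRCm38, and the sources used here do not give the annotation release or strand setting. Of 43721 rows, 92 spike-in rows, all at 0, were left out, and 42462 of the 43629 genes were found in GENCODE M21, which gave positions and exon lengths.

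The 40 genes and all lists were chosen with earlier results of these data known. Each treatment has 1 library, so 9 comparisons of 2 pools used ratios of counts scaled by TMM factors from all 6 pools. Their 95% intervals are exact conditional (Clopper-Pearson) ones, and shares have exact binomial ones. The size rule asks for 20 counts in 1 pool, a 2-fold ratio and an interval beyond 1.5-fold. Log2 ratios used a prior count of 2, and a gene at 0 was bounded at 3 counts per library.

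Arm effects came from edgeR 4.0.16 (R 4.3.3), a quasi-likelihood fit of inhibitor arm plus antibody over 6 pools with filterByExpr (4912 genes, common dispersion 0.215) and Benjamini-Hochberg adjustment, called at an adjusted p under 0.05. The SE is the log2 change divided by the root of F. That test assumes that inhibitor and antibody effects add. Other steps used Python 3.11.15, numpy 2.4.6, scipy 1.17.1 and pandas 2.3.3, and the steps were tested on simulated data. For the edgeR fit the simulated counts had a smaller dispersion than these data, so that check does not show how the fit behaves at their spread. Alternatives were DESeq2 1.42.0 with its size factors, library totals, nuclear protein-coding totals, TMM of the 2 pools alone, thinning, other count minimums, no interval condition and leaving out each pool. The text gives counts in all pools for every member called by a rule, for Cdk1, Plk1 and Top2a and for members with at least 100 control counts, and gives the other members by range. Genes outside the 40 are named where they are past a rule or are markers at 0 on one of the lists, or regulate the members, and not all such genes are named.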

Additional observations from a re-analysis of the deposited data

How the results depend on the processing

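No paired analysis was possible because each treatment has 1 library and the labels give no shared replicate numbers. The limits are 1 pool per treatment, a 62.4-fold range of depth, and scaling that shifts with RNA make-up. TMM of the 2 pools alone and taking off expected background were chosen after seeing the data. Taking off expected background can only lower the ratio of an inhibitor pool to a pool without inhibitor. Of 178 single values of called genes (36 calls under 5 settings), 116 stayed past the rule, 62 did not and 0 changed direction. For comparisons of 2 pools the share of all genes called was computed in the main setting only. The counts of members under other settings below thus have no share of all genes to be read against. Cenpe in AZD5363+MK1775+anti-PD-1 tumours had no ratio with thinning, against control or anti-PD-1, since the other pool then held 0 counts. The cause of the other differences here was not tested. In anti-PD-1 against control the summed ratio (0.860) was 0.895 with DESeq2 size factors, 0.895 with library totals, 0.889 with nuclear protein-coding totals, 0.833 with 2-pool TMM and 0.793 with thinning.

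In AZD5363+MK1775 against control 1 member was lower (in place of 2) with DESeq2 size factors, library totals, nuclear protein-coding totals or thinning, and 17 were lower and 3 higher with no interval condition. The summed ratio (0.592) was 0.747 with nuclear protein-coding totals and 0.491 with 2-pool TMM. In AZD5363+MK1775+anti-PD-1 against control 12 members were lower (in place of 3) with library totals, 5 with nuclear protein-coding totals, 6 with no interval condition and 8 with 2-pool TMM, and 2 were higher (in place of 4) with library totals, 0 with thinning and 7 with no interval condition. The summed ratio (0.951) was 0.593 with library totals, 0.884 with nuclear protein-coding totals, 0.703 with 2-pool TMM, 0.892 with thinning and 1.05 without Birc5.

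In KS100 against control 1 member was lower (in place of 5) with thinning, and 22 were lower and 1 higher with no interval condition. The summed ratio (0.410) was 0.492 with DESeq2 size factors and 0.304 with 2-pool TMM. In KS100+anti-PD-1 against control 1 member was lower (in place of 5) with DESeq2 size factors, 2 with nuclear protein-coding totals, 3 with thinning, 24 with no interval condition and 11 with 2-pool TMM, and 2, 1, 2 and 4 were higher (in place of 0) with DESeq2 size factors, library totals, nuclear protein-coding totals and no interval condition. The summed ratio (0.378) was 0.679 with DESeq2 size factors, 0.636 with nuclear protein-coding totals, 0.197 with 2-pool TMM and 0.286 with expected background taken off.

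In AZD5363+MK1775+anti-PD-1 against anti-PD-1 10 members were lower (in place of 4) with library totals, 0 with thinning, 8 with no interval condition and 8 with 2-pool TMM, and 2 were higher (in place of 5) with library totals, 3 with nuclear protein-coding totals, 0 with thinning, 9 with no interval condition and 3 with 2-pool TMM. The summed ratio (1.11) was below 1 at 0.663 with library totals, 0.994 with nuclear protein-coding totals and 0.863 with 2-pool TMM, and was 1.21 without Birc5. In KS100+anti-PD-1 against anti-PD-1 0 members were lower (in place of 5) with DESeq2 size factors, nuclear protein-coding totals or thinning, 25 with no interval condition and 13 with 2-pool TMM, and 3, 2 and 4 were higher with DESeq2 size factors, nuclear protein-coding totals and no interval condition. The summed ratio (0.440) was 0.758 with DESeq2 size factors, 0.715 with nuclear protein-coding totals, 0.243 with 2-pool TMM and 0.333 with expected background taken off.

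In AZD5363+MK1775+anti-PD-1 against AZD5363+MK1775 1 member was lower (in place of 0) with DESeq2 size factors, library totals, nuclear protein-coding totals, a minimum of 10 counts or none, and 2 with no interval condition. There, 1 was higher (in place of 2) with DESeq2 size factors or thinning, 0 with library totals or nuclear protein-coding totals and 14 with no interval condition. The summed ratio (1.61) was below 1 at 0.938 with library totals, and was 1.18 with nuclear protein-coding totals and 1.93 with 2-pool TMM. In KS100+anti-PD-1 against KS100 1 member was higher with a minimum of 10 counts or none, 1 was lower with no interval condition, and the summed ratio (0.922) was 1.38 with DESeq2 size factors and 1.34 with nuclear protein-coding totals.

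Of 4912 genes, the anti-PD-1 arm called 7, 2 with no count filter, 3 with the DESeq2 test, and 0 to 14 with each pool left out in turn. The AZD5363+MK1775 arm called 66, and 9 to 203 with each pool left out. The KS100 arm called 378, 1270 with no count filter, and 14 to 290 with each pool left out, and it called 0 to 1 of the members. With a pool left out, an arm with 1 sample is assumed to vary like the others, and the filter kept other numbers of genes.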
